A study of Homo sapiens with 6 samples.

Results

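The 10 genes described here belong to bone morphogenetic protein (BMP) signaling and its ID targets: the ligands BMP4 and BMP7, the receptors BMPR1A and BMPR2, the signal transducers SMAD1, SMAD5 and SMAD9, and the target genes ID1, ID2 and ID3. They were taken by name from the deposited table, in which 10 of the 27918 rows carried one of these symbols, and all 10 passed the filter on low values. Each of the 10 rows held 1 gene name only. The cells were HCT-116, a long-established line from a human colorectal carcinoma. They were transfected with 10 nM of a GapmeR, an antisense oligonucleotide that directs RNase H to its target RNA, either against the long noncoding RNA CASC9 (GapC9) or as negative control (GapNC), and 3 poly(A) RNA libraries were sequenced for each group. The time from transfection to harvest was 48 h in the methods and 24 h in the results text. The labels did not say whether the 3 libraries of a group came from separate cultures, so the p-values measure the spread between these libraries, which may be technical. All 6 libraries came from the same cell line, and a single GapmeR against CASC9 was sequenced. The comparison asks how transcript levels of the pathway differed between the libraries labelled GapC9 and those labelled GapNC.

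BMP ligands are secreted dimers that bind a type I receptor such as BMPR1A together with a type II receptor such as BMPR2. The type II receptor phosphorylates the type I receptor, which then phosphorylates SMAD1, SMAD5 and SMAD9, and these enter the nucleus with SMAD4 and act on target genes, among them ID1, ID2 and ID3. ID proteins have a helix-loop-helix domain but no DNA-binding region, and they hold E proteins such as TCF3 and TCF12 away from DNA. In the intestine, BMP signaling is known to restrain stem cell proliferation and to favor differentiation, and BMPR1A and SMAD4 are genes of inherited juvenile polyposis.

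Transcript levels were given in FPKM, fragments per kilobase of transcript scaled to the mapped fragments of the library. The 16028 rows with a mean of at least 0.1 FPKM were tested with limma on log2(FPKM + 0.1), and every log2 fold change below is GapC9 minus GapNC on that scale, which understates the change of low genes. A gene was called when the ratio of mean FPKM was at least 2 or at most 0.5 with an unadjusted p under 0.05, and separately when its p passed 0.05 after Benjamini-Hochberg adjustment over all 16028 rows. CASC9 itself was near 0 throughout, at 0, 0.0108 and 0 FPKM under the label GapNC against 0.0528, 0.107 and 0 FPKM under the label GapC9, and was not lower in the latter. Each direction given here therefore rests on the library labels. Summed FPKM was 152661 to 166816 per library, and if the commonest step between low values is 1 fragment, the libraries held 22.7 to 24.4 M fragments. Of 7 epithelial markers, 6 were at 1 FPKM or more and VIL1 was near 0. Marker sums used only rows with 1 gene name, which were 3 of 5 immune, 4 of 4 endothelial and 3 of 6 fibroblast markers. Immune and endothelial markers on such rows summed to at most 0.113 FPKM in any library. CD68 was left out, on a row of 49.8 to 55.7 FPKM that joins it with EIF4A1 and other genes. PDGFRA was left out, on a row of 3.22 to 4.09 FPKM that joins it with FIP1L1 and AC058822.1. Among the fibroblast markers, COL1A1 and COL3A1 were at 1 FPKM or more and COL1A2 was near 0, with sums of 4.11 to 5.68 FPKM in GapNC and 4.34 to 5.28 FPKM in GapC9. Spearman's correlation across 10117 rows between a library's deviation and GC content was 0.618 in GapNC replicate 1 and 0.0130 and −0.101 in the other GapNC libraries, and it reached 0.0215, −0.339 and −0.384 in the GapC9 libraries.

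The clearest differences among the 10 genes lay at the receptor BMPR2 and at the 3 ID genes, all lower in the libraries labelled GapC9. ID1 fell at the fold of 2 with an unadjusted p, and ID2 fell after adjustment. These are bulk libraries, in which fewer cells expressing a gene and less of its RNA per cell cannot be told apart. Neither rule called BMP4, BMP7, BMPR1A, BMPR2, SMAD1, SMAD5, SMAD9 or ID3. By the fold of 2 and unadjusted p, 0 of the 10 genes were higher and 1 was lower, against 2.10% of all rows tested higher and 4.32% lower. After adjustment, 0 were higher and 1 was lower, where 1.89% and 5.10% of all rows were. At an unadjusted p under 0.05 alone, limma gave 0 higher and 4 lower (BMPR2, ID1, ID2 and ID3), where 9.09% of all rows were higher and 16.8% lower. The 3 GapC9 libraries lay below the 3 GapNC libraries for 5 of the 10 genes (BMP7, BMPR2, ID1, ID2 and ID3), where 21.6% of all rows did so, and above them for 0 of the 10, where 12.6% of all rows did. The fitted change was below 0 for 8 of the 10 genes and above 0 for BMP4 and SMAD9, and SMAD1 and SMAD5 moved to the other side of 0 after median scaling or quantile normalization. The median log2 fold change was −0.42 over the 10 genes and −0.08 over all rows tested. Median scaling moved the latter to 0.02. It also moved the balance of all calls, from 336 higher and 693 lower to 464 and 476, and a correction of each library for GC content gave 467 and 423.

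**Figure D1:**
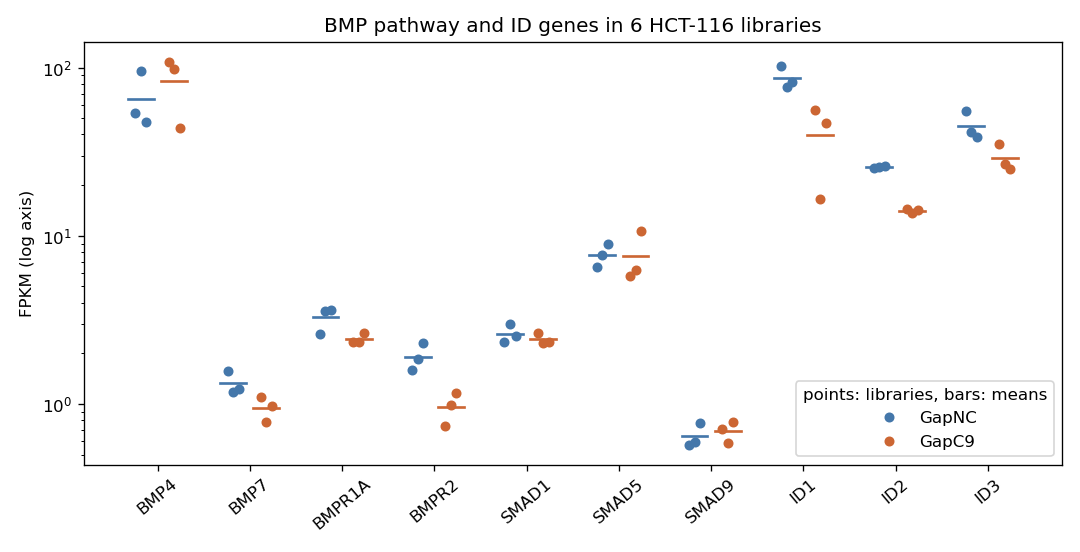
FPKM of the 10 genes on a log axis, with a point for each of the 3 GapNC and 3 GapC9 libraries and a bar at each group mean. The GapC9 points of ID2 (13.6 to 14.4 FPKM) and of ID1 (16.6 to 55.5 FPKM) lie below all GapNC points of the same gene, whereas those of BMP4 and the SMAD genes overlap.

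The genes spanned a wide range of levels. By mean FPKM over the 6 libraries the order was BMP4, ID1, ID3, ID2, SMAD5, BMPR1A, SMAD1, BMPR2, BMP7 and SMAD9. Neighbors overlapped from BMP4 to ID2, between BMPR1A and SMAD1, and between BMPR2 and BMP7. SMAD5, at 5.80 to 10.7 FPKM, stood apart from ID2 above it and from BMPR1A below it. SMAD1 (2.32 to 2.995 FPKM) lay just above BMPR2 (0.743 to 2.30 FPKM), and BMP7 (0.785 to 1.58 FPKM) just above SMAD9 (0.569 to 0.779 FPKM).

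BMP4 encodes a secreted ligand of the pathway and was the most abundant of the 10 transcripts by mean. The gene (ENSG00000125378) spans 53949736 to 53958761 of chromosome 14 in GRCh38, on the minus strand, and the other positions below are in the same build. It stood at 53.5, 95.1 and 47.3 FPKM in GapNC replicates 1, 2 and 3 and at 108, 98.6 and 43.6 FPKM in GapC9 replicates 1, 2 and 3. Both groups held high and low libraries, and they overlapped. The means were 65.3 ± 26.0 and 83.5 ± 34.9 FPKM (SD, n = 3), and the log2 fold change was 0.32 with a 95% interval of −0.73 to 1.37 (limma adjusted p = 0.680). With 1 library left out, this change ranged from 0.08 to 0.73.
BMP7, a related secreted ligand (ENSG00000101144), spans 57168748 to 57266629 of chromosome 20 on its minus strand and overlaps the antisense gene BMP7-AS1. It was at 1.58, 1.17 and 1.23 FPKM in the GapNC libraries and at 1.10, 0.785 and 0.980 FPKM in the GapC9 libraries. The groups did not overlap, although the highest GapC9 library came close to the lowest GapNC library. The mean was 1.33 ± 0.219 FPKM in GapNC and 0.954 ± 0.158 FPKM in GapC9 (SD, n = 3), and the log2 fold change was −0.44 (limma adjusted p = 0.202, standard error 0.18). After the GC correction it was −0.22, and the strand of the reads was not stated to have been used in counting, so reads of BMP7-AS1 cannot be told apart.

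BMPR1A, the type I receptor kinase, and BMPR2, the type II receptor kinase, were both lower on average in the libraries labelled GapC9. BMPR1A (ENSG00000107779; chromosome 10, plus strand, 86756601 to 86932838) was at 2.61, 3.58 and 3.64 FPKM in GapNC replicates 1, 2 and 3 and at 2.33, 2.34 and 2.63 FPKM in the GapC9 libraries. GapNC replicate 1 fell within the GapC9 range, so the groups overlapped. The means were 3.28 ± 0.581 and 2.43 ± 0.174 FPKM (SD, n = 3), so that the log2 fold change was −0.40 with a standard error of 0.16 (limma adjusted p = 0.193). After the GC correction the change was −0.48 and passed (limma adjusted p = 0.0324). BMPR1A has the processed pseudogenes BMPR1AP1 and BMPR1AP2 elsewhere in the genome, with which it may share reads.
BMPR2 (ENSG00000204217) lies on the plus strand of chromosome 2 from 202376936 to 202567751, and a processed pseudogene lies inside it on each strand. GapNC replicates 1, 2 and 3 held 1.59, 1.84 and 2.30 FPKM of BMPR2, and the GapC9 replicates held 0.743, 0.990 and 1.16 FPKM in the same order. Every GapC9 library was below every GapNC library. The group means were 1.91 ± 0.363 and 0.966 ± 0.212 FPKM (SD, n = 3), a ratio of 0.506. On the log2 scale this was −0.92 (standard error 0.21, 95% interval −1.45 to −0.39), with a limma adjusted p of 0.0603. BMPR2 was thus just outside both rules. It came inside the fold of 2 without GapNC replicate 1 (ratio 0.466), GapNC replicate 2 (0.497), GapC9 replicate 2 (0.499) or GapC9 replicate 3 (0.454), and after the GC correction (0.456). Its adjusted p after that correction was 0.0117 with limma, and its transcript has a GC content of 37.6%, low among the 10 genes.

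BMPR2 shares its role as type II receptor with ACVR2A and ACVR2B, which also bind activins. ACVR2A was at 1.44, 1.54 and 1.56 FPKM in the GapNC libraries and at 2.31, 2.40 and 2.70 FPKM in the GapC9 libraries. ACVR2B was at 1.39, 0.994 and 1.19 FPKM in GapNC and at 1.93, 2.11 and 2.07 FPKM in GapC9. For both genes every GapC9 library was above every GapNC library, the reverse of BMPR2. ACVR2A rose by 0.67 on the log2 scale (limma adjusted p = 0.0347, standard error 0.12) and ACVR2B by 0.73 (limma adjusted p = 0.0469, standard error 0.15). With 1 library left out, ACVR2A passed the adjusted threshold in 0 of 6 fits and ACVR2B in 1, the fit without GapNC replicate 1. The 3 type II receptors summed to 4.42, 4.38 and 5.06 FPKM in GapNC and to 4.99, 5.50 and 5.94 FPKM in GapC9. BMPR2 made up 35.8%, 42.1% and 45.5% of that sum in the GapNC libraries but 14.9%, 18.0% and 19.6% in the GapC9 libraries. The sums overlapped between the groups and the shares did not. The separation of the shares follows from the separation of the 3 genes given above and adds nothing to it. The mean share was 41.2% ± 4.92 in GapNC and 17.5% ± 2.39 in GapC9 (SD, n = 3), and no test of this share was run.

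**Figure D2:**
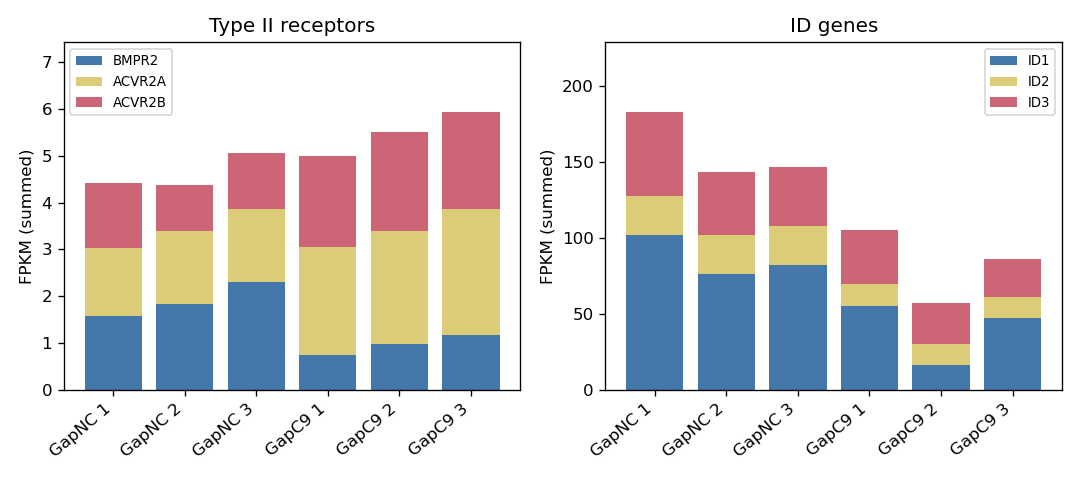
Stacked FPKM in each library of the 3 type II receptors (left) and of the 3 ID genes (right), with axes from 0. BMPR2 makes up 35.8% to 45.5% of the type II sum in GapNC and 14.9% to 19.6% in GapC9, with overlapping sums, and the ID sum is 144 to 183 FPKM in GapNC and 57.0 to 105 FPKM in GapC9.

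SMAD1, SMAD5 and SMAD9, the transducers that the type I receptors phosphorylate, showed no difference that passed a test. SMAD1 (ENSG00000170365; chromosome 4, plus strand, 145481194 to 145558079) was at 2.33, 2.995 and 2.54 FPKM in GapNC and at 2.64, 2.32 and 2.34 FPKM in GapC9. SMAD5 (ENSG00000113658; chromosome 5, plus strand, 136132845 to 136188747) was at 6.51, 7.71 and 8.92 FPKM in GapNC and at 5.80, 6.25 and 10.7 FPKM in GapC9. SMAD9 (ENSG00000120693; chromosome 13, minus strand, 36844831 to 36920765) was at 0.569, 0.594 and 0.775 FPKM in GapNC and at 0.715, 0.590 and 0.779 FPKM in GapC9. The groups overlapped for all 3 genes, and in SMAD5 and SMAD9 GapC9 replicate 3 was the highest of the 6 libraries. The log2 fold change of SMAD1 was −0.10 (95% interval −0.44 to 0.24, limma adjusted p = 0.689), that of SMAD5 −0.07 (−0.71 to 0.58, adjusted p = 0.904) and that of SMAD9 0.09 (−0.35 to 0.54, adjusted p = 0.785). The interval of SMAD5 was the widest of the 3, and its GapC9 libraries were the most spread. SMAD1 overlaps the antisense genes SMAD1-AS1 and SMAD1-AS2, and SMAD5 overlaps SMAD5-AS1. SMAD9 rested on an estimated 72 to 106 fragments per library, the fewest of the 10 genes.

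The windows around the start sites of the 3 ID genes are shown because each gene was lower in every GapC9 library than in any GapNC library. Each window covers 250 bases before to 50 bases after the RefSeq start, on the gene's own strand, in GRCh38.p14. Capitals mark CCAAT and TATAAA on either strand, including overlapping matches. The windows are chr20:31605039-31605338 on the plus strand for ID1 (62.7% GC), chr2:8681806-8682105 on the plus strand for ID2 (69.0% GC) and chr1:23559452-23559751 on the minus strand for ID3 (59.7% GC).
ID1: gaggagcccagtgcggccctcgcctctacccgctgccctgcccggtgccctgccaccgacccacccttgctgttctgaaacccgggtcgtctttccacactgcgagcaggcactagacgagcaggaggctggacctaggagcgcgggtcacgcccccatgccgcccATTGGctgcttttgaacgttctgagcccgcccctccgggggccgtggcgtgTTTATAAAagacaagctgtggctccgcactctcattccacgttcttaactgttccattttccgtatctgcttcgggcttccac
ID2: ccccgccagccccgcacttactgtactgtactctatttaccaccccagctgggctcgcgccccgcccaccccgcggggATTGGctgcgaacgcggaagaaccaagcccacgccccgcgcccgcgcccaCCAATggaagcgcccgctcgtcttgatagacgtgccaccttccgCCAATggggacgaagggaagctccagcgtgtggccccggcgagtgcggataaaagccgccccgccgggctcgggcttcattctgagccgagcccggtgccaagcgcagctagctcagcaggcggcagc
ID3: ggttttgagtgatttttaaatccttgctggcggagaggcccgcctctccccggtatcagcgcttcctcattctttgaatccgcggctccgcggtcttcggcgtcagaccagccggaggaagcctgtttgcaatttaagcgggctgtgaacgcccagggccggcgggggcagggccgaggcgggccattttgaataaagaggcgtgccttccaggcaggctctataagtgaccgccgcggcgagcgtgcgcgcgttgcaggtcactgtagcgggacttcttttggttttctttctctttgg
The ID1 window held CCAAT on the opposite strand at −84 and TATAAA at −31, the latter overlapped by the same letters on the opposite strand at −33. ID2 held CCAAT at −122 and −78 and on the opposite strand at −172. No letters of these kinds were found in the ID3 window. Of 34796 RefSeq windows of this length, 34.6% held CCAAT and 11.6% TATAAA, searched on both strands. These letters were added to the search after the values were seen. GGCGCC, a GC-rich element known to be bound by SMAD1 and SMAD5, was in 19.2% of all windows, TGACGTCA (the cAMP response element) in 1.84% and CACGTG (an E-box) in 7.2%, and none of these was found in the 3 ID windows. Sequence outside the windows was not searched, so the search cannot show whether such elements lie further from the start sites. Among the other genes, GGCGCC was found in a window of BMP4, BMPR2, SMAD1 and SMAD5. BMP4 and SMAD1 had more than a single window, so these finds cannot be set against the percentages of single windows. Windows were used for 9 of the 10 genes, all but BMP7.

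ID1 (ENSG00000125968) lies on the plus strand of chromosome 20 from 31605283 to 31606515, with no other gene overlapping it. It was at 102, 76.2 and 82.1 FPKM in GapNC replicates 1, 2 and 3 and at 55.5, 16.6 and 47.1 FPKM in GapC9 replicates 1, 2 and 3. All GapC9 libraries were below all GapNC libraries, and GapC9 replicate 2 stood well below the other two. The means were 86.8 ± 13.6 and 39.7 ± 20.5 FPKM (SD, n = 3), a ratio of 0.458. The log2 fold change was −1.29 (standard error 0.46, 95% interval −2.42 to −0.16), the largest fall among the 10 genes and also the least precise, with a limma adjusted p of 0.151. The unadjusted p from limma was 0.0311. Without GapC9 replicate 2 the ratio was 0.591 and the log2 fold change −0.75, outside the fold of 2. Without GapNC replicate 1, 2 or 3 the unadjusted p from limma was 0.102, 0.0610 or 0.0706, so the call of ID1 held with a library left out only without GapC9 replicate 1 or 3. It was also lost after the GC correction, at a ratio of 0.546 and a limma p of 0.0594.

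ID2 (ENSG00000115738) lies on the plus strand of chromosome 2 from 8678845 to 8684453 and overlaps the antisense gene ID2-AS1. The GapNC libraries held 25.4, 25.8 and 26.1 FPKM of ID2, and the GapC9 libraries 14.4, 13.6 and 14.3 FPKM. Both groups were tight and lay far apart. The mean fell from 25.7 ± 0.315 to 14.1 ± 0.437 FPKM (SD, n = 3), a ratio of 0.547 that was −0.87 on the log2 scale (95% interval −1.07 to −0.66, standard error 0.08, limma adjusted p = 0.0154). ID2 had the smallest standard error of the 10 genes. Its adjusted p was 0.0195 after median scaling and 0.0102 after the GC correction, with changes of −0.76 and −0.70. Without GapNC replicate 1 or 3 the limma adjusted p was 0.0213 or 0.0496. It was 0.0571 without GapNC replicate 2, and 0.0577, 0.0735 and 0.0668 without GapC9 replicates 1, 2 and 3, while the log2 fold change stayed between −0.88 and −0.84.

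ID3 (ENSG00000117318) spans 23557918 to 23559794 of chromosome 1 on its minus strand, again with no overlapping gene. It was at 55.4, 41.7 and 38.4 FPKM in GapNC replicates 1, 2 and 3 and at 35.1, 26.8 and 24.8 FPKM in GapC9 replicates 1, 2 and 3. GapNC replicate 1 was the highest library, and the highest GapC9 library lay just below the lowest GapNC library. The means were 45.2 ± 9.03 and 28.9 ± 5.44 FPKM (SD, n = 3), or −0.64 on the log2 scale (standard error 0.19, 95% interval −1.12 to −0.17, limma adjusted p = 0.107). After the GC correction the change of ID3 was −0.41 (limma adjusted p = 0.0585). The GC content of the longest transcript was 57.2% for ID3, 58.6% for ID1 and 53.3% for ID2, among the higher values of the 10 genes (36.9% to 58.6%). For ID1 and ID3 the highest value came from GapNC replicate 1, the library with the correlation of 0.618 to GC content. The correction reduced the log2 fold change of all 3 ID genes and of BMP7, and it enlarged those of BMPR1A and BMPR2.

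**Figure D3:**
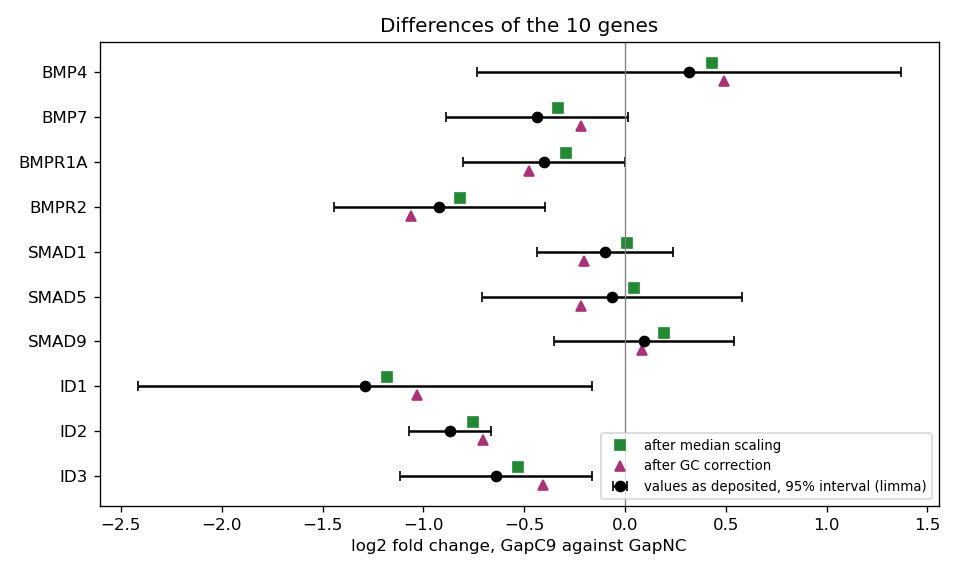
Log2 fold change (GapC9 minus GapNC) of the 10 genes, with limma's 95% interval for the values as deposited (circles) and the change after median scaling (squares) and after GC correction (triangles). The intervals of BMPR2, ID1, ID2 and ID3 lie below 0 and the widest are those of ID1 and BMP4.

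Taken as a sum, ID1, ID2 and ID3 reached 183, 144 and 147 FPKM in the GapNC libraries, compared with 105, 57.0 and 86.2 FPKM in the GapC9 libraries. The groups did not overlap, at 158 ± 22.0 and 82.7 ± 24.2 FPKM (SD, n = 3), as follows from the separation of each of the 3 genes. ID1 made up 53.1% to 56.0% of the sum in GapNC and 52.9%, 29.2% and 54.6% in GapC9 replicates 1, 2 and 3. GapC9 replicate 2 stood furthest from the others, and the shares of the groups overlapped. Their E protein partners were examined after the values were seen. TCF3 was at 34.7, 24.7 and 22.5 FPKM in GapNC and at 17.6, 14.1 and 15.4 FPKM in GapC9, or −0.78 on the log2 scale (limma adjusted p = 0.0656, standard error 0.19). After the GC correction the difference of TCF3 was −0.46 and passed (limma adjusted p = 0.0168). TCF12 was at 3.20 ± 0.410 and 3.31 ± 0.228 FPKM (SD, n = 3), with a log2 fold change of 0.05 (limma adjusted p = 0.847) that turned negative after the GC correction and without GapNC replicate 2. The ratio of summed ID genes to the sum of TCF3 and TCF12 was 4.83, 5.22 and 5.61 in GapNC and 4.996, 3.24 and 4.67 in GapC9. This ratio overlapped between the groups, unlike the ID sum itself.

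**Figure D4:**
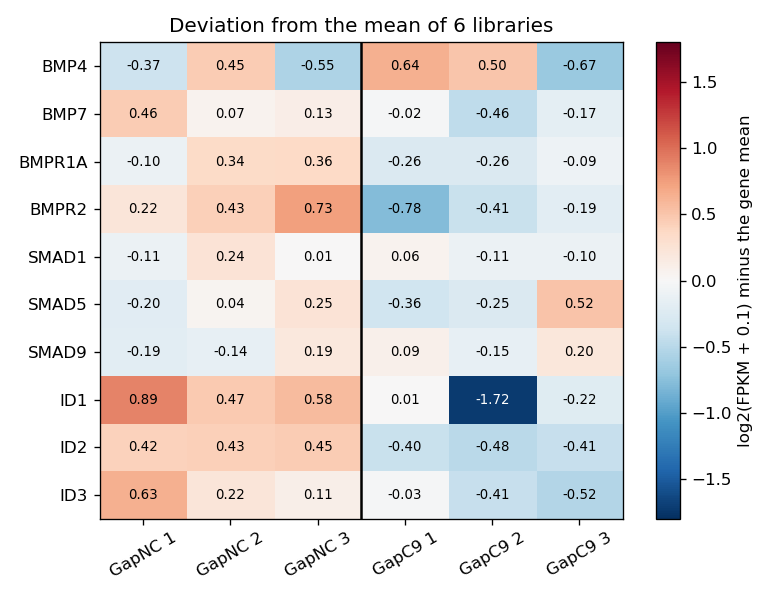
Deviation of log2(FPKM + 0.1) from each gene's mean over the 6 libraries, for the 10 genes (rows) and the libraries (columns), with the value in each cell. ID2 is near 0.4 in each GapNC library and near −0.4 in each GapC9 library, and the strongest single deviation is −1.72 for ID1 in GapC9 replicate 2.

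The profiles of the 3 ID genes across the libraries were set beside those of other rows. Likeness was measured as the root mean square difference of centered log2(FPKM + 0.1) over the 6 libraries, among 10228 other rows with a mean of at least 1 FPKM. For ID1 the nearest rows were ETV6, an ETS-family repressor (0.22), NCK2, an adaptor protein (0.24), and TANC1, a scaffold protein (0.27). ETV6 had the same dip in GapC9 replicate 2, at 0.948, 0.378 and 0.964 FPKM in GapC9 against 1.57 to 1.99 FPKM in GapNC. For ID2 the nearest were FOCAD, GNG4 (a G protein gamma subunit) and PARD3 (a cell polarity scaffold), at 0.03, 0.04 and 0.05. FOCAD was as tight as ID2, at 4.78 to 4.88 FPKM in GapNC and 2.62 to 2.63 FPKM in GapC9. For ID3 they were a row that joins C7orf43 and MIR4658, then PEX16, a peroxisome assembly factor, and TSR3, a ribosomal RNA modifying enzyme, at 0.03, 0.04 and 0.04. TSR3 was at 33.6, 25.1 and 23.2 FPKM in GapNC and 22.1, 15.8 and 14.3 FPKM in GapC9, with GapNC replicate 1 highest as in ID3. None of the other 9 genes was among the 3 nearest rows of ID1, ID2 or ID3, but SMAD9, below 1 FPKM, was not compared. ID2 ranked 565 and ID3 769 by likeness to ID1, ID3 ranked 1165 to ID2, and BMP7, at 689, ranked ahead of ID2, at 1707, by likeness to ID3.

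Around these genes, a list of 58 further BMP pathway genes was drawn up, of which 45 were found in the table, 13 were not analysed here and 30 passed the filter. Of the 30, 15 were above 0 and 15 below, with a median log2 fold change of 0.01 against −0.08 over all rows tested, and 18 were above 0 and 12 below after median scaling. By the fold of 2 and unadjusted p, 1 was higher (SMAD7) and 4 were lower (BMP6, ENG, CRIM1 and ATOH8). Of all rows tested, 2.10% were higher and 4.32% lower by that rule. After adjustment, 3 were higher (ACVR2A, ACVR2B and SMAD7) and 2 lower (BMP6 and FSTL1), where 1.89% and 5.10% of all rows were. Of 3 ligands tested, BMP6 fell from 0.644, 0.566 and 0.517 FPKM in GapNC to 0.248, 0.246 and 0.226 FPKM in GapC9. The libraries of BMP6 did not overlap, and the difference was −0.99 on the log2 scale (limma adjusted p = 0.0311, standard error 0.17). With 1 library left out, BMP6 kept the fold call in all 6 fits and passed the adjusted threshold in none (limma adjusted p 0.0520 to 0.116).
The co-receptor ENG (endoglin) fell by the unadjusted rule, at 0.192 ± 0.0363 and 0.0703 ± 0.0262 FPKM (SD, n = 3), values near the filter. It lost the call without GapC9 replicate 2 and after the GC correction (ratio 0.579).
The 6 extracellular antagonists tested, proteins that bind BMP or related ligands outside the cell, were below 0, with a median of −0.43, as were 9035 of all 16028 rows, but CHRD (chordin) moved above 0 after median scaling, quantile normalization or the GC correction and without GapNC replicate 1 or GapC9 replicate 3, and TWSG1 without GapC9 replicate 2. With no filter, 3 of 14 were above 0 and 11 below. CRIM1, a membrane protein that binds BMP ligands, fell from 14.7, 15.6 and 10.4 FPKM in GapNC to 6.07, 8.90 and 4.997 FPKM in GapC9 (ratio 0.490, limma adjusted p = 0.0702). Its ratio was 0.531 after median scaling and 0.510 after the GC correction, outside the fold of 2. It was also outside without GapNC replicate 1 or 2 or GapC9 replicate 1 or 3, at 0.511 to 0.551. FSTL1, a secreted glycoprotein, fell from 3.74, 3.64 and 3.88 FPKM to 2.39, 2.27 and 2.52 FPKM (log2 fold change −0.63, limma adjusted p = 0.0311, standard error 0.10). Its groups did not overlap, and it passed with a library left out only without GapNC replicate 1. NOG (noggin) lay below the filter, was listed at 0 in 4 of the 6 libraries, and is named here after its values were seen.
Of the shared transducer and the intracellular inhibitors, the 6 tested had a median of 0.21 and were above 0, as were 6993 of all 16028 rows. Of the 6, only SMAD7 had a 95% interval that excluded 0. SMURF2 moved below 0 after the GC correction and without GapNC replicate 1 or GapC9 replicate 3, and SMURF1 without GapNC replicate 2. SMAD7, which blocks type I receptors, passed both rules. SMAD7 was at 0.743, 1.11 and 1.03 FPKM in GapNC and at 2.01, 2.43 and 2.02 FPKM in GapC9, opposite in direction to the ID genes. Its adjusted p with a library left out was under 0.05 only without GapNC replicate 1 (limma, 0.0404). The SMAD4 row also joined ELAC1 and AC091551.1.
Of 8 other target genes tested, ATOH8 fell by the unadjusted rule, at 0.162 ± 0.0690 and 0.0549 ± 0.0201 FPKM (SD, n = 3), near the filter, a ratio of 0.339. It lost the call on its p, with ratios of 0.320 to 0.459, without GapNC replicate 1 or 3, without GapC9 replicate 2 or 3, after median scaling and after the GC correction.

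**Figure D5:**
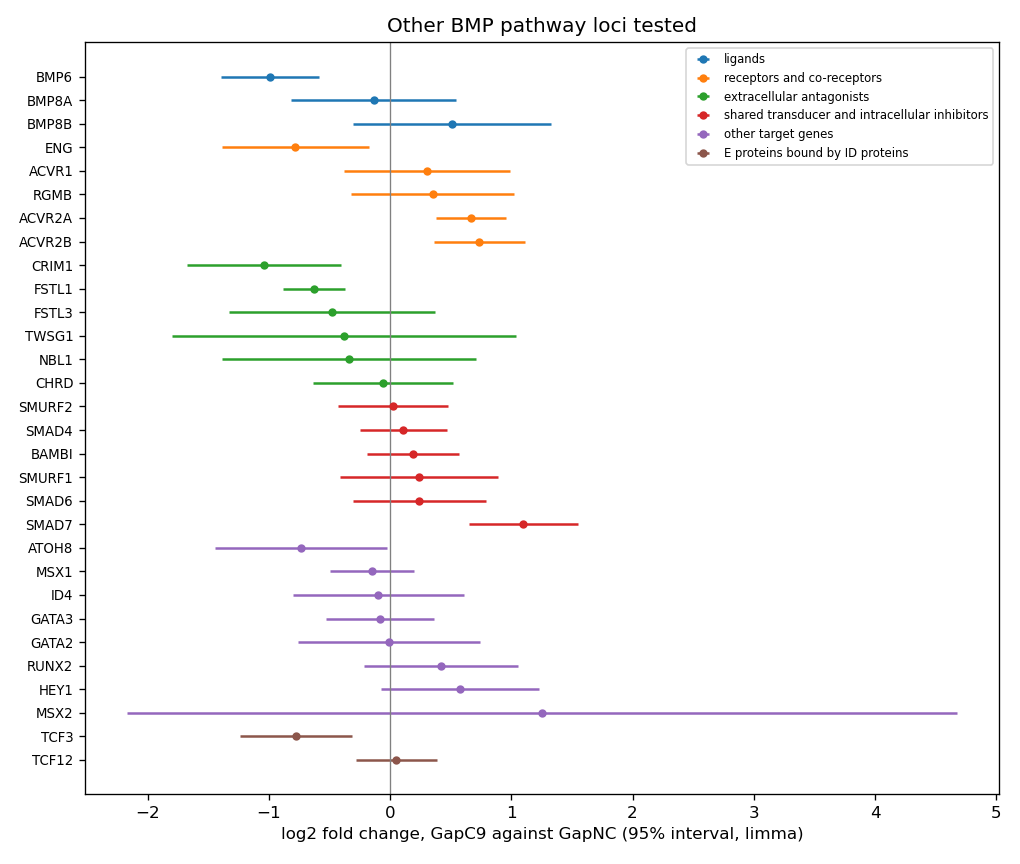
Log2 fold change (GapC9 minus GapNC) with limma's 95% interval for the 30 further BMP pathway genes tested, colored by role, with SMAD4 and NBL1 standing for rows that join them with neighboring genes. The 6 antagonists lie below 0 and the 6 genes of the shared transducer and intracellular inhibitors above 0 (CHRD and SMURF2 cross 0 after the GC correction, CHRD also after median scaling or quantile normalization, and CHRD, TWSG1, SMURF1 and SMURF2 with certain libraries left out), and the widest interval is that of MSX2.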

How the data were processed

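Poly(A) RNA-sequencing of HCT-116 cells was re-examined. The authors aligned the reads with HISAT (HISAT2 2.0 in the submitters' processing notes) and deposited FPKM values from StringTie 1.3.0 in 1 table of 27918 rows, without counts. Because FPKM is relative to the mapped fragments of each library, a gain of abundant RNAs reduces every other value. The notes also list Bowtie 0.12.2 and a mouse build, which did not match the human Ensembl identifiers of the table, and the human build was not named beyond its species. Functional annotation columns were used only as a source of an alternative list. The study called genes with edgeR, which was not run here because only FPKM was used. All 6 sample columns were mapped by name, and 0 were left unused.

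Rows with a mean of at least 0.1 FPKM were tested in R 4.3.3 with limma 3.58.1 (lmFit, eBayes with a mean-variance trend, all 6 libraries in 1 fit, two-sided) on log2(FPKM + 0.1), with Benjamini-Hochberg adjustment over 16028 rows. The fold threshold of 2 with an unadjusted p under 0.05 follows the study. The script was tested on simulated data. The 10 genes, the pathway list and its roles were chosen with earlier results of these data known. Named genes were the 10 members, pathway genes past either rule, and the 3 rows most like each ID gene, and others are said to be chosen after their values were seen. Gene positions, overlaps and GC content came from GENCODE 29 (GRCh38) through the listed Ensembl transcripts (GC known for 27771 rows), and promoter windows from RefSeq (GRCh38.p14). Python 3.11.15, pandas 2.3.3 and matplotlib 3.10.9 were used for annotation and figures. Alternatives were pseudocounts of 1 and 0.01, a filter at 1 FPKM, no filter, no row listed at 0, median scaling, quantile normalization, no variance trend, robust variances, the fitted fold, a GC correction (lowess, span 0.3), a replicate block, and each library left out. Single values carry no counting error because only FPKM was used, and fragment numbers are estimates.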

Additional observations from a re-analysis of the deposited data

How the results depend on the processing

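The directions of BMP4, BMP7, BMPR1A, BMPR2, SMAD9, ID1, ID2 and ID3 were kept under all alternatives in which each gene was tested, and those of SMAD1 and SMAD5 were not. Beside the limits given with each gene, the cause of the changes below was not tested, except that leaving out a library or raising the filter leaves fewer libraries or rows. With the filter at 1 FPKM, 116 rows were higher and 380 lower at the fold of 2 and unadjusted p, and the pathway list had 1 lower by that rule and 1 lower after adjustment. With no filter, 555 rows were higher by the fold rule, 146 higher and 346 lower after adjustment, and the list had 0 higher and 1 lower after adjustment. Median scaling gave 505 rows lower after adjustment, with 2 higher and 2 lower by the fold rule on the list and 1 lower after adjustment. Quantile normalization gave 516 rows lower after adjustment, with 2 lower by the fold rule and 1 lower after adjustment on the list. The fold taken from the fit left 1 lower gene on the list. The GC correction gave 423 rows lower by the fold rule and 1141 higher and 1236 lower after adjustment. Of the 10 genes 3 (BMPR1A, BMPR2 and ID2) were then lower after adjustment, and the list had 2 higher and 1 lower by the fold rule. Rows of the table annotated to BMP signaling, an alternative chosen after seeing the data (72 rows, 57 tested, 8 of them among the 10 genes), had 1 higher and 7 lower by the fold rule and 4 higher and 4 lower after adjustment, with 29 above 0 and 28 below. Of all rows tested, 2.10% were higher and 4.32% lower by the fold rule, and 1.89% and 5.10% after adjustment. Above 0 were 6993 of the 16028 rows tested.

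With each library left out, the adjusted calls over all rows were 16 to 240 higher and 16 to 570 lower. Of the 10 genes, 0 to 2 were lower by the fold rule (0 without GapNC replicate 3, and both ID1 and BMPR2 without GapC9 replicate 3) and 0 to 1 after adjustment. Without GapNC replicate 1 or 2 or GapC9 replicate 2, the 1 gene lower by the fold rule was BMPR2, not ID1. The pathway list had 1 to 2 higher and 2 to 3 lower by the fold rule and 0 to 2 higher and 0 to 1 lower after adjustment.

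The labels number the replicates of both groups alike. Deviations of same-numbered libraries from their group means correlated at 0.113, 0.0362 and 0.0332 across 10229 rows. Those of differently numbered libraries correlated at −0.119 to 0.0867. The correlation with GC content fell from replicate 1 to replicate 3 in both groups. The labels did not say whether same-numbered libraries were handled together, and with 3 libraries a group these correlations cannot decide it. With the replicate number as a block, 0 rows were higher and 0 lower after adjustment, as were 0 of the 10 genes and 0 higher and 0 lower on the pathway list, which kept 2 lower by the fold rule. ID2 had a limma adjusted p of 0.0608 in that fit, at the same log2 fold change. The replicate block with the GC correction gave 409 rows lower by the fold rule, 0 higher and 1 lower after adjustment, 0 of the 10 genes after adjustment, and on the list 1 lower by the fold rule and 0 higher and 0 lower after adjustment.

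Values near 0.1 FPKM, as for ENG and ATOH8, rest on few fragments. With 3 libraries a group, the 95% intervals of SMAD9 (−0.35 to 0.54) and BMP7 (−0.89 to 0.01) included 0. The smallest detectable difference was not computed.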

Other observations

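Genes of the pathway list outside the naming rule were looked at after their values were seen. MSX1, a homeobox target of BMP signaling, was expressed at a level close to that of ID3, at 46.2, 37.8 and 34.4 FPKM in GapNC and 39.0, 32.3 and 35.0 FPKM in GapC9. The groups overlapped, and unlike the ID genes MSX1 had a log2 fold change of only −0.15 (standard error 0.14, limma adjusted p = 0.547). Its relative MSX2 was at 0.1004, 4.98 and 5.97 FPKM in GapNC replicates 1, 2 and 3 and at 6.43, 1.77 and 6.75 FPKM in GapC9 replicates 1, 2 and 3. The low value of MSX2 in GapNC replicate 1 gave it the widest interval of the list, −2.17 to 4.68 on the log2 scale. HEY1, a basic helix-loop-helix repressor, was higher in each GapC9 library (0.161 to 0.221 FPKM) than in any GapNC library (0.0508 to 0.135 FPKM), a log2 fold change of 0.58 that missed the adjusted threshold (limma, 0.233). ID4, the remaining ID gene, was close to the filter, at 0.0928, 0.0730 and 0.168 FPKM in GapNC and 0.0741, 0.0768 and 0.138 FPKM in GapC9.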
